A study of Homo sapiens with 6 samples.

Results

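The microRNAs described here are hsa-miR-4516, hsa-miR-3648, hsa-miR-4484, hsa-miR-3178, hsa-miR-1268a, hsa-miR-4271, hsa-miR-638 and hsa-miR-1228-5p, written without the species prefix below. They are 8 human microRNAs whose mature sequences are rich in G and C and most of which carry high registry numbers. They were chosen by name, and their probes are 8 of the 2019 human probes on the array. The names were listed with the brightness of these probes and their differences after cisplatin already known, so both are given below as description, without a test of the probes as a set. Signals came from 3 arrays of HuH7 cells kept with 1 µg/ml cisplatin for 24 h and 3 arrays of HuH7 cells kept without cisplatin for 24 h. HuH7 is an established hepatocellular carcinoma line, and cisplatin is a platinum drug that crosslinks DNA. Nothing in the labels says that the 3 samples of a group came from separate cultures, so the errors and p-values below cover sample-to-sample spread that may be technical in origin.

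A microRNA is a short RNA cut from a hairpin precursor and loaded into an Argonaute protein, where its seed, bases 2 to 8, pairs with target messenger RNAs. Registry numbers follow the order of annotation, and high-numbered entries mostly come from deep sequencing, often with few supporting reads. Short sequences rich in G and C pair strongly with complementary strands. A probe's signal therefore shows hybridisation to that sequence and does not by itself show a processed microRNA.

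The mature sequences show what the 8 probes share and where they differ. They are from RefSeq (GRCh38.p14), with the seed in capitals.
miR-4516: gGGAGAAGggucggggc
miR-3648: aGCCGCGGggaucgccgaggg
miR-4484: aAAAGGCGggagaagcccca
miR-3178: gGGGCGCGgccggaucg
miR-1268a: cGGGCGUGgugguggggg
miR-4271: gGGGGAAGaaaaggugggg
miR-638: aGGGAUCGcgggcggguggcggccu
miR-1228-5p: gUGGGCGGgggcaggugugug

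No seed occurs in more than 1 of the 8, so they do not form a seed family. A run of GGG, read on the mature strand only, occurs in 8 of 8, against 30.9% of the 1688 human probes whose name matched a RefSeq mature sequence and 65.1% of the 146 other matched probes with G+C of at least 70%. The longer run GGGG, counted in the same way and overlapping the first, is found in 6 of 8, in 10.1% of matched probes and in 34.9% of those 146, so such runs are common among GC-rich probes at large. The label "GC-rich" suits 6 of them, with G+C between 76.2% in miR-1228-5p and 88.2% in miR-3178, in the top part of the array, where the median over matched probes is 50%. It suits miR-4484 (60%) and miR-4271 (63.2%) less well, since 76.5% and 81.1% of matched probes have as much G+C or less, against 96% or more for each of the other 6. miR-4271 holds 12 G and no C at all, so its G+C is G alone. The label "late-annotated" suits miR-638 least, which has the lowest number of the set.

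The 8 genes lie on 7 chromosomes, with miR-4516 and miR-3178 both on chromosome 16, 398842 bases apart. miR-4516 (MIMAT0019053, chr16:2133120-2133136, plus strand) lies within the span of PKD1, the gene of polycystin-1. miR-4484 (MIMAT0019018, chr10:125819803-125819822, plus strand) lies within UROS, which encodes an enzyme of haem synthesis, and miR-4271 (MIMAT0016901, chr3:49274158-49274176, plus strand) within C3orf62. miR-638 (MIMAT0003308, chr19:10718419-10718443, plus strand) lies within DNM2, the gene of the membrane-fission GTPase dynamin 2. miR-1228-5p (MIMAT0005582, chr12:57194504-57194524, plus strand) lies within LRP1, the gene of an endocytic receptor. miR-3648 was given 1 locus, under the numbered symbol MIR3648-2, and further copies of its sequence were not looked for. The remaining genes, miR-3648 (MIMAT0018068, chr21:8987026-8987046, plus strand), miR-3178 (MIMAT0015055, chr16:2531979-2531995, minus strand) and miR-1268a (MIMAT0005922, chr15:22225308-22225325, minus strand), had no other gene over them in the RefSeq table. That table gives gene spans without exons or strand, so intron, exon and UTR were not assigned.

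MIR1228 has been listed as a mirtron, a class named for hairpins released by splicing as a whole short intron rather than by Drosha. How MIR1228 itself is made was not tested. Its precursor (GRCh38.p14, chr12:57194504-57194576, plus strand) is shown because the array has a probe for each arm. The 2 arms are in capitals.
MIR1228: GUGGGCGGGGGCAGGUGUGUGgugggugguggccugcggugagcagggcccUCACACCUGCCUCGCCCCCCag

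All 8 probes lay above the blank-spot limit on all 6 arrays, a limit set for each array at 2 SD above the mean of its 925 blanks. The limits were 208.63 to 246.53 intensity units on cisplatin arrays and 220.08 to 239.83 on control arrays, and 329 to 713 human probes exceeded them on cisplatin arrays, against 500 to 738 on control arrays. The scanner's Cell entry, read here as the position on the slide, was 4, 2 and 4 for cisplatin arrays and 3, 1 and 3 for control arrays. An effect of this entry and a cisplatin effect cannot be told apart. The liver microRNAs miR-122-5p, miR-122-3p, miR-192-5p and miR-194-5p were above the limit on all 6 arrays, 4 of 4. Of 11 markers of endothelium, muscle, blood and nerve, 1 was, miR-126-3p.

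**Figure D1:**
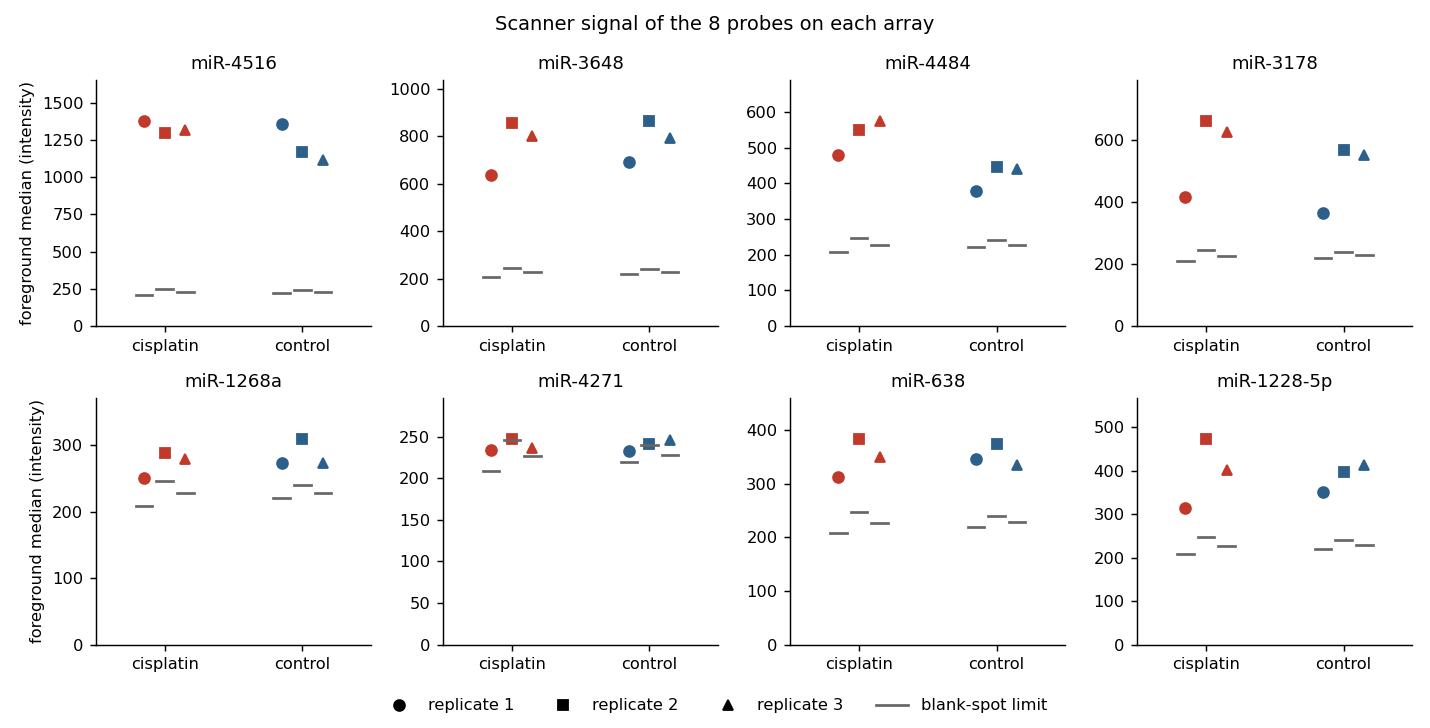
Raw foreground median (y axis, intensity units, from 0) of each of the 8 probes on the 3 cisplatin arrays (left, red) and the 3 control arrays (right, blue), with the marker shape giving the replicate number and grey bars the blank-spot limit of each array. Only the miR-4484 groups are apart, with 478 to 575 units in cisplatin and 377 to 446 units in control arrays, and miR-4271 sits on the limit.

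Compared next were cisplatin and control cells, the question the series names. The fit was limma's on normalized log2 signals (background-corrected with normexp, then quantile-normalized), run over the 324 probes above the limit on all arrays of at least 1 group. Of the 8 probes, 0 passed at an adjusted p under 0.05 (limma, smallest adjusted p = 0.0975, for miR-4484), where 0.309% of all tested probes did. At an unadjusted p under 0.05 there were 2, miR-4484 and miR-3648, against 15.7% of all tested probes. Because the probes were listed with these differences known, nothing is read from either count. Differences lay below 0 for 6 of the 8 (52.2% of all tested probes) and above 0 for miR-4484 and miR-3178, with a median of -0.10 on the log2 scale, beside -0.012 over all tested probes.

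**Figure D2:**
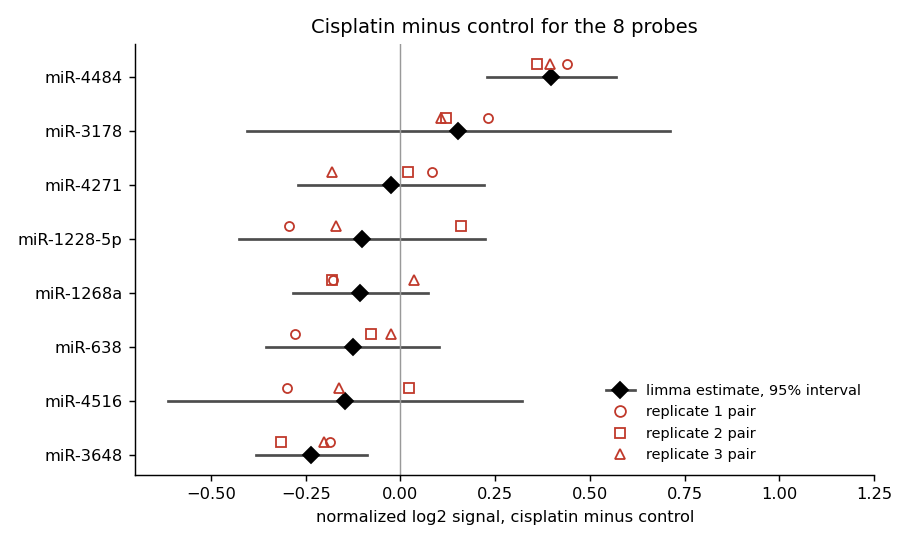
Normalized log2 signal in cisplatin minus control arrays (x axis) for each of the 8 probes (y axis), with black diamonds for the limma estimate, bars for its 95% interval without pairing, and open red symbols for the 3 same-numbered pairs of arrays. Intervals of miR-4484 (0.227 to 0.568) and miR-3648 (-0.382 to -0.0884) lie to opposite sides of 0, and the other 6 include 0.

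miR-4484 had the largest difference of the 8. Its raw foreground was 478, 549 and 575 units on cisplatin arrays 1, 2 and 3, against 377, 446 and 441 units on control arrays 1, 2 and 3. Every cisplatin array was above every control array, also in raw values. After normalization the means were 8.58 ± 0.086 in cisplatin and 8.18 ± 0.071 in control arrays (log2, SD, n = 3 each), a log2 difference of 0.40 (SE 0.068). Same-numbered arrays differed by 0.44, 0.36 and 0.39, higher in cisplatin in 3 of 3. Of all tested probes, 8.64% had groups apart with cisplatin higher, and 18.8% had groups apart in either direction.

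This difference depended on whether pixel medians or pixel means were used. The deposited files give both the median and the mean over the pixels of a spot, and for miR-4484 these were close on 5 arrays. On control array 2 the median was 446 units and the mean 746 units, with a pixel SD of 1075.5 units, while the pixel SD on the other 5 arrays was 97.9 to 151 units. Divided by the spot's median, the pixel SD was 2.41 there, the highest of all 1944 spots of the tested probes, whose median ratio was 0.254. With pixel means in place of medians the log2 difference of miR-4484 was -0.042, and with pixel means and without control replicate 2 it was 0.26 (adjusted p = 0.286). With pixel medians and without control replicate 2 it was 0.38. What lay on that spot cannot be read from these files.

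**Figure D3:**
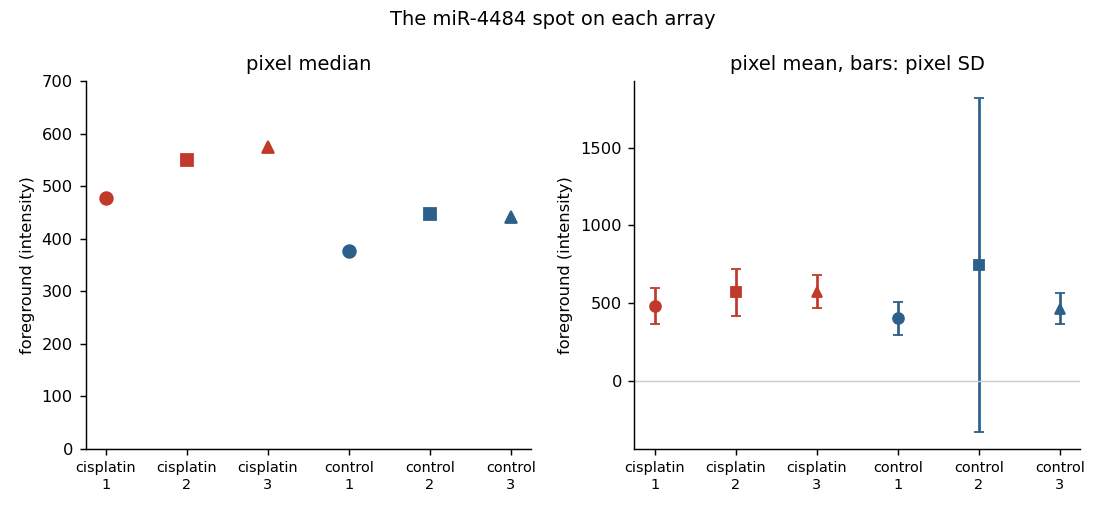
Foreground of the miR-4484 spot (y axes, intensity units) on the 3 cisplatin arrays (red) and the 3 control arrays (blue), as the pixel median (left) and as the pixel mean with the pixel SD as bars (right). The groups are apart by medians, while by means control array 2 stands highest at 746 units with a pixel SD of 1075.5 units.

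miR-3648 had the largest negative difference. Raw foreground was 638, 857 and 801 units on cisplatin arrays 1, 2 and 3, against 691, 866 and 795 units on control arrays 1, 2 and 3, so the raw groups overlap. Quantile normalization set them apart, with 9.22 ± 0.019 in cisplatin and 9.46 ± 0.084 in control arrays (log2, SD, n = 3 each) and a log2 difference of -0.24 (SE 0.059). The normalized value was lower in cisplatin in 3 of 3 pairs, at -0.19, -0.32 and -0.20, and 10.2% of all tested probes had groups apart with cisplatin lower. The size rested on the scaling and on the choice between pixel medians and means. Cyclic loess gave -0.25, scaling to spike spots -0.20 and the 75th percentile of the probes detected on all 6 arrays -0.18. Without normalization between arrays the difference was -0.021, with arrays scaled to the median of the probes detected on all 6 it was -0.11. With the median and the 75th percentile over all human probes it was -0.0034 and 0.0037. With pixel means in place of medians it was -0.13, and with pixel means and without control replicate 2 it was -0.077.

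miR-638 and miR-1268a also had negative differences, within the spread of the arrays. Raw miR-638 signal was 313, 383 and 350 units on cisplatin arrays, against 346, 375 and 335 units on control arrays, and the groups overlapped. Its normalized log2 difference was -0.13 (SE 0.091), lower in cisplatin in 3 of 3 pairs, -0.13 with cyclic loess and -0.18 with spike scaling, but -6.8e-04 without normalization between arrays and 0.024 with the 75th percentile over all human probes. miR-1268a stood at 250, 288 and 280 units on cisplatin arrays and at 273, 309 and 274 units on control arrays, again with overlap. Its log2 difference was -0.11 (SE 0.071), lower in 2 of 3 pairs.

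The miR-1268a probe cannot be read alone. All 18 bases of miR-1268a are also the first 18 of the 20 bases of miR-1268b, a separate gene on chromosome 17, whose sequence is given for comparison with the same seed in capitals.
miR-1268b: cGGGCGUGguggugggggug
The array has a probe of its own for miR-1268b, with a log2 difference of -0.058 (SE 0.058). Signals of the pair cannot be assigned to 1 gene. The other 7 probes had no such twin, the longest run shared with any other matched probe being 11 bases, between miR-638 and miR-4707-5p.

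For miR-4516 and miR-3178 the replicate number took the largest shares of the spread among the 8, and in opposite directions. miR-4516 gave 1379, 1295 and 1318 units on cisplatin arrays 1, 2 and 3, against 1358, 1167 and 1117 units on control arrays 1, 2 and 3. The raw mean was thus higher in cisplatin, 1331 ± 43.4 against 1214 ± 127 units in control (SD, n = 3 each), while the normalized log2 difference was -0.15 (SE 0.19). Its sign turned with the scaling, to 0.069 with the median of the probes detected on all 6 arrays and to 0.16 without normalization, while cyclic loess gave -0.079. It was 0.052 without control replicate 1. No direction is given for miR-4516.

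miR-3178 gave 418, 663 and 627 units on cisplatin arrays 1, 2 and 3, against 364, 567 and 554 units on control arrays 1, 2 and 3. Each cisplatin array was above the control array of its number, while the groups as a whole overlapped because both arrays numbered 1 were low. The normalized log2 difference was 0.15 (SE 0.22), higher in cisplatin in 3 of 3 pairs at 0.23, 0.12 and 0.11. With the replicate number as a block the SE was 0.049 and the difference did not pass either (adjusted p = 0.278). Without control replicate 1, whose value was the lowest, the unpaired difference was -0.065.

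Of the sum of squares of the normalized values over the 6 arrays, replicate number took 90.8% for miR-3178 and 81% for miR-4516, and group took 8.09% and 10.5%. Over all tested probes with any spread the medians were 42.9% for number and 16.5% for group. Number has 3 levels and group 2, so the shares are not on an equal footing. Number also took more than group for miR-4271 (69.7% against 1.52%), miR-1228-5p (50.4% against 11%) and miR-638 (47.4% against 30%). It took less for miR-1268a (28.4% against 37.6%). Arrays numbered 1 lay 0.54 log2 units below those numbered 2 and 3 for miR-3178 and 0.43 above them for miR-4516. Pearson's r between these 2 probes was -0.97 over the 6 arrays, which share their normalization. For miR-4484 and miR-3648, in contrast, group took 90.5% and 84.9%, which restates the differences given above.

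**Figure D4:**
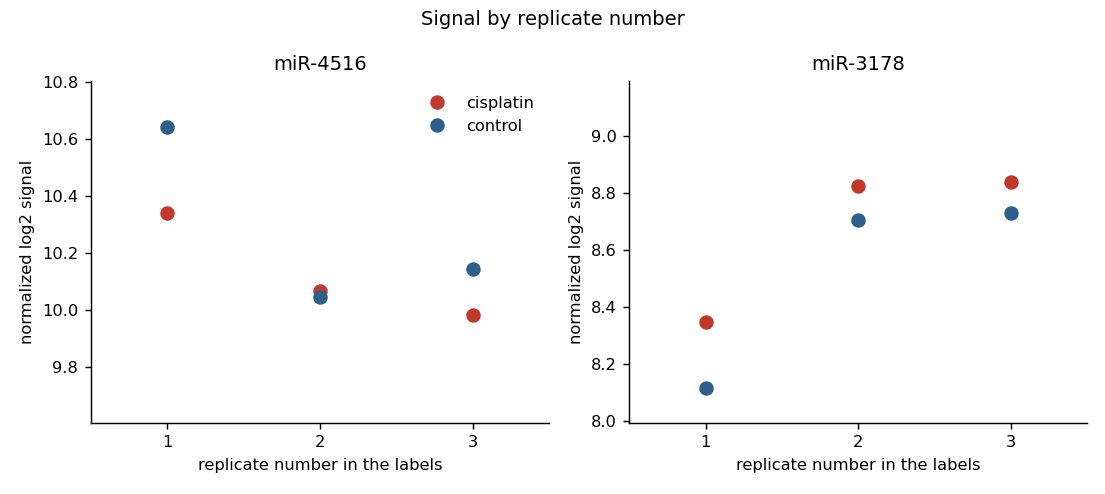
Normalized log2 signal (y axes, each spanning 1.2 log2 units in the same scale) of miR-4516 and miR-3178 by the replicate number in the labels (x axis), cisplatin in red and control in blue. Both arrays numbered 1 are the highest for miR-4516 and the lowest for miR-3178.

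miR-4271 lay at the edge of detection. It stood at 234, 247 and 236 units on cisplatin arrays, against 233, 241 and 246 units on control arrays. It exceeded the blank-spot limit by 0.474 to 25.4 units on cisplatin arrays and by 1.17 to 17.9 units on control arrays, so its detection rests on a margin of less than 1 unit on 1 array, cisplatin 2. The log2 difference was -0.026 (SE 0.098), and 6 of 19 alternative settings turned its sign. The limma interval of miR-4271 ran from -0.27 to 0.22, so no direction is given. Whether the low signal over background hid a change was not tested.

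miR-1228-5p gave 315, 472 and 402 units on cisplatin arrays 1, 2 and 3, against 351, 397 and 413 units on control arrays 1, 2 and 3. The cisplatin arrays held both the lowest and the highest value, and the log2 difference was -0.10 (SE 0.13), lower in 2 of 3 pairs. The opposite arm of its hairpin, miR-1228-3p, was above the limit on 0 of 3 cisplatin arrays and 3 of 3 control arrays. Its log2 difference was -0.20 (SE 0.085), as a point estimate 1.15-fold lower in cisplatin, and it did not pass (limma adjusted p = 0.325). The cisplatin values behind it lay below the limit. Measured log2 means of that arm were 6.63 in cisplatin and 6.83 in control arrays.

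Mirtrons are the class in which miR-1228-5p has been listed. Over the 22 listed mirtron arms on the array, without miR-1228-5p but with its opposite arm miR-1228-3p, 11 differences were above 0 and 11 below, with a median of -0.0085. Only 5 arms were tested and 0 of them passed (limma, 1 at an unadjusted p under 0.05). That 1 was miR-1229-5p, at 0.48 (SE 0.14, adjusted p = 0.167), which was above the limit on 3 of 3 cisplatin arrays and 2 of 3 control arrays. It and miR-1228-3p passed the filter only through the group where each is high, so the tested arms are not summarised. Of the 3 arms above the limit on all 6 arrays, miR-1227-5p stood at 0.19 (SE 0.12). miR-1237-5p stood at 0.17 (SE 0.071), and miR-1234-5p at 4.3e-04 (SE 0.13).

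Probes as rich in G and C were then taken as a whole. G+C of at least 70% was found in 152 of 1688 matched probes, 6 of them from the set. Detection went with this property across the array. The filter passed 8.04% of probes with G+C under 40%, 13.2% from 40%, 14.6% from 50%, 17.3% from 60% and 42.8% of those at 70% or more. The difference after cisplatin did not follow it, with medians of 0.011, 0.0029, -0.020, 0 and -0.024 in the same order for tested probes. Over all probes of each class, without the filter, they were -0.012, 0.0032, -0.0097, 0.0032 and -0.012. These are descriptions across probes, which share arrays and normalization.

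**Figure D5:**
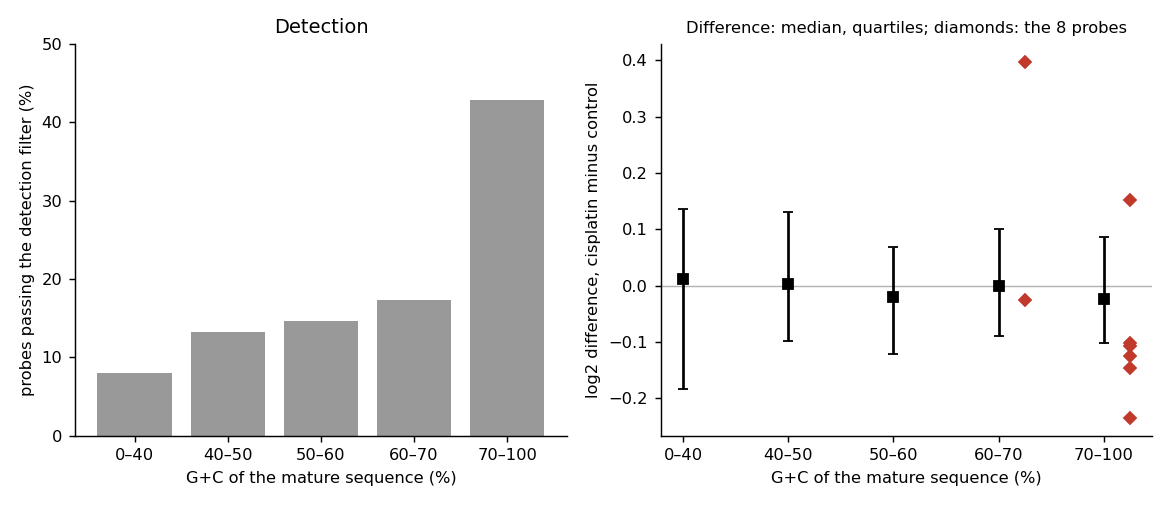
Left, the share of human probes that passed the detection filter (y axis, %) by G+C of the mature sequence (x axis, %), which is 42.8% at 70% or more and 8.04% below 40%. Right, the log2 difference in cisplatin minus control (y axis) of the tested probes in each class as median (squares) and quartiles (bars), with the 8 probes as red diamonds.

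Among the 146 other probes of this G+C, 59 were tested and 0 passed (limma, 5 at an unadjusted p under 0.05), 26 above 0 and 33 below, with a median of -0.020. Over all 146, tested or not, 68 were above 0 and 78 below, with a median of -0.0091. Those with the highest signal were miR-6089 with a log2 difference of 0.024 (SE 0.15), miR-4497 at -0.17 (SE 0.089), miR-5787 at -0.11 (SE 0.16), miR-762 at -0.27 (SE 0.14), miR-6090 at 0.0068 (SE 0.099) and miR-4787-5p at -0.017 (SE 0.096). The range of the 59 tested probes ran from -0.27 to 0.30.

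The 8 probes did not move as 1 group over the arrays. Of 28 pairs among them 12 correlated above 0 over the 6 arrays, with a median r of -0.048 and a range from -0.97 to 0.87. miR-1268a and miR-638 were the most alike (r = 0.87), and miR-4484 and miR-3648 were opposed (r = -0.91). Their mean profile was accordingly flat, from -0.038 on cisplatin array 1 to 0.021 on control array 1. The tested probes most like that mean profile by Pearson's r over 6 arrays, out of 316, were miR-1185-5p (0.93), miR-7-5p (0.91), miR-196a-5p (0.88), miR-192-5p (0.88) and miR-20a-5p (0.88), none of them with G+C above 47.6%. miR-1185-5p was above the blank-spot limit on 0 of 3 cisplatin arrays and 3 of 3 control arrays, so 3 of the 6 values behind its r are below that limit. No p is given, since these were picked as the highest.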

How the data were processed

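Total RNA of 6 HuH7 samples was labelled with Hy5 and hybridised to a custom 1-colour array, per the labels. The deposited scanner files hold linear intensity, per the file headers as pixel medians and means of every spot and its surroundings, with 1 spot for each of 2019 human probes (15 with several names). Their columns are named 532 while the labels name Hy5, and which laser was read is not settled by these. The authors' processed table also holds intensity, scaled to a common median per array, and was an alternative.

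limma 3.58.1 (R 4.3.3) was used to correct foreground medians for local background by normexp with an offset of 50. The corrected values were log2-transformed, and the human probes were then quantile-normalized. Groups were compared with lmFit and eBayes and Benjamini-Hochberg adjustment over 324 probes. Intervals use 4 residual and 1.52 prior degrees of freedom. The quantile step and the offset shrink the folds of dim probes. The number of arrays limits the precision.

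The members, lists and settings were chosen with earlier results of these data known. The text names all 8 members, the 5 tested probes closest to their mean profile, the 6 brightest other tested probes with G+C of at least 70%, and the opposite arm. Added after their values were seen were miR-1268b, miR-4707-5p, miR-5703, miR-4434, miR-4725-3p, miR-1227-5p, miR-1229-5p, miR-1237-5p and miR-1234-5p. Samples of the same number deviated together (r = 0.44, 0.235 and 0.204 for numbers 1, 2 and 3). The correlation of cisplatin 2 with control 3 was 0.229, so numbers 2 and 3 are not told apart by this. Differences of same-numbered arrays are given as description. The main fit, with its SEs, intervals and p-values, did not use the pairing, and the replicate block was an alternative. Figures used matplotlib 3.10.9.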

Additional observations from a re-analysis of the deposited data

How the results depend on the processing

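The alternatives were 25, and 19 of them can move a single difference. Median and 75th percentile scaling used the probes detected on all 6 arrays, a probe set settled after seeing the data, as were scaling over all human probes and pixel means without control replicate 2. The number of the 8 probes called was 0 under all 25, the replicate block included. The number of all tested probes called was 1. It was 4 with median scaling and cyclic loess, 3 without background correction and with the 75th percentile over all human probes, and 2 with the 75th percentile and with median scaling over all human probes. It was 0 without normalization, with spike scaling, pixel means (with or without control replicate 2), the authors' values, no detection filter, detection on all 6 arrays, trend and robust moderation, the replicate block, and replicates 1 and 3 only. Dropping single arrays gave counts of 0 to 3, the 3 without cisplatin replicate 2 and 0 for each of the others. The authors' values moved the median of all tested probes to 0.14, and spike scaling moved it to -0.11. The median of the 8 was below 0 under 15 of 19 alternatives and, less the shift of all tested probes, under 19. Those 19 are not separate results. Settings that differ only by a constant per array give the same value less the shift, -0.050. These are median and 75th percentile scaling over either probe set, spike scaling and no normalization. Before the shift was taken off, the median of the 8 was 0.021 without normalization and 0.086 with the authors' values. It was 0.039 with median and 0.046 with 75th percentile scaling over all human probes. Leaving out 1 array gave -0.11 to -0.058. The median of the other GC-rich probes was -0.061 with the 75th percentile, 0.097 without normalization, -0.085 with spike scaling, 0.16 with the authors' values, 0.11 with median and 0.12 with 75th percentile scaling over all human probes. Leaving out 1 array gave -0.030 to 0.049, the last without control replicate 1. miR-1268a kept its sign under all 19, though it ranged from -0.24 to -0.0019, the last with pixel means and without control replicate 2. The sign was kept under all but 1 by miR-3648, miR-4484 and miR-3178, and under all but 2 by miR-638. miR-1228-5p kept it under all but 5, and miR-4516 and miR-4271 under all but 6. The replicate block changed no call among the 8. The causes of these shifts were not tested.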

Other observations

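Of the 8 spots, 4 stood in the same of the 32 printed blocks of the array, miR-4516, miR-3178, miR-1268a and miR-4271, among 60 human probes there. miR-4516 and miR-3178, whose signals ran opposite to each other over the arrays, were in the same column of that block, in rows 5 and 3. Each human probe had 1 spot, so place on the array and probe cannot be told apart.

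Apart from miR-1268b, whose probe was above the limit on all 6 arrays, 3 probes share a seed with 1 of the 8. miR-5703 and miR-4434, with the seed of miR-4516, were above the limit on 0 and 1 of 3 cisplatin arrays and on 1 and 1 of 3 control arrays. miR-4725-3p, with the seed of miR-4271, was above it on 3 of 3 cisplatin and 3 of 3 control arrays and had a log2 difference of 0.16 (SE 0.082, limma adjusted p = 0.441).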
